A study of Mus musculus with 2 samples.

Results

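*Prg2*, *Prss34* and *Mcpt8* encode granule proteins of eosinophils and basophils, and were 3 of the 7915 genes listed in the 2 single-cell RNA-Seq (Sc-RNA-Seq) libraries. They were chosen by name with their measured levels in these libraries already known. The rule asks how many cells hold high counts, whether the genes share cells and which lineage these cells belong to, so counts of high cells are given as a description. The libraries hold bone marrow cells (BMCs) from the hindlimbs and forelimbs of C57BL6/J mice on postnatal day 21, after lysis of red blood cells. One genotype was WT. The other was S1P Cko, in which a Cre-GFP fusion protein removes both floxed copies of *Mbtps1*, the gene for site-1 protease (S1P). The fusion protein is driven by the *Osx1* promoter, which is known for its activity in bone-forming cells. The authors propose that this promoter also acts in the blood lineage, and they report loss of the floxed exon in sorted Cko neutrophils. The Cko mouse carried the Cre transgene, and no library of a mouse with the transgene alone was used here. Each genotype is 1 library of 1 mouse, so no test between genotypes was possible.

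Eosinophils and basophils are rare granulocytes that mature in bone marrow. Both store basic proteins and enzymes in cytoplasmic granules, and their messages are made mostly while the granules fill, at the precursor stages. *Prg2* encodes major basic protein, the core of the eosinophil granule. *Prss34* (mast cell protease 11) and *Mcpt8* (mast cell protease 8) encode serine proteases that in the mouse mark basophils rather than tissue mast cells.

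The 3 genes lie on different chromosomes of GRCm38. *Prg2* spans chr2:84980461-84983632 on the plus strand, *Mcpt8* chr14:56082166-56085273 on the minus strand and *Prss34* chr17:25298394-25300165 on the plus strand, each with its exons and introns. The RefSeq promoter table (GRCm38.p6) held 2 of the 3 genes, and *Prg2* had no entry. The bases before the transcription start of the protease genes are shown because *Prss34* and *Mcpt8* shared their cells, as described below. They are chr14:56085274-56085447 on the minus strand for *Mcpt8*, shortened to 174 bases so as to stop at the annotated gene, and the 250 bases of chr17:25298144-25298393 on the plus strand for *Prss34*. Capitals mark matches to GATAA (the core of the GATA motif), TTGCNNAA (the C/EBP motif) and TGTGGT (the Runx motif), which were searched on both strands and do not overlap here.
Mcpt8: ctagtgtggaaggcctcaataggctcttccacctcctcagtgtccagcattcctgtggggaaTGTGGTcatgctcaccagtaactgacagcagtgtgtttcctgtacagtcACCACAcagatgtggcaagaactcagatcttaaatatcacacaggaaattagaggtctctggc
Prss34: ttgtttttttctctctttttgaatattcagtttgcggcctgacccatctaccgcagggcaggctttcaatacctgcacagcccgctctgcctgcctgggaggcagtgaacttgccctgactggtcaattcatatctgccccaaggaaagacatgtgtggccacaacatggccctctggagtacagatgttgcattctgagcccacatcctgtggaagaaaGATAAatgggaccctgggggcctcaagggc

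In the 250 bases before the RefSeq start, *Prss34* held 1 GATAA, which begins 30 bases before the start, and no match to the other letters. *Mcpt8* held 2 matches to TGTGGT, which begin 188 and 139 bases before the start, and none to the others. The promoters of the pair therefore shared none of the 3 motifs. Of 32851 RefSeq windows of the same length, 22.6% held GATAA, 14% held TGTGGT and 9.56% held TTGCNNAA, so these matches are common. The matches describe letters and not binding.

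The WT library gave 6271 cells of 6287 barcodes with a median of 6977 unique molecular identifiers (UMIs, each counting 1 captured RNA molecule), and the Cko library gave 3662 of 3670 with a median of 7440. Barcodes with fewer than 200 genes were left out. A set of 28 barcodes occurred in both libraries, and 1 of them belonged to a cell described below. *Mbtps1* was at 31.9 counts per 1000000 UMIs (CPM) in WT (95% Poisson interval 30.5 to 33.4) and 31.2 CPM in Cko (29.3 to 33.1). This 3′ count does not read the floxed exon, so it does not check the deletion. All intervals here cover counting error only, not the spread between mice.

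Few cells carried nearly all the transcripts. *Prg2* gave 1286 UMIs in WT and 2262 in Cko, *Prss34* gave 3500 and 4113, and *Mcpt8* gave 3106 and 4579. A cell with at least 10 UMIs of a gene is called high for it. *Prg2* was high in 7 WT cells and 4 Cko cells, *Prss34* in 17 and 20, and *Mcpt8* in 23 and 29. Between 92.2% and 98.6% of the UMIs of each gene lay in its high cells.

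The WT *Prg2*-high cells held 14, 67, 167, 181, 206, 280 and 306 UMIs. The Cko cells held 385, 386, 573 and 859 UMIs, all above the highest WT cell. Per 10000 UMIs of the cell, however, WT ranged from 7.71 to 766 with a median of 243, and Cko from 348 to 735 with a median of 566, so the ranges overlapped on that scale.

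For *Prss34* the WT cells held from 10 to 536 UMIs with a median of 176, and the Cko cells from 10 to 743 with a median of 160. For *Mcpt8* they held from 12 to 318 with a median of 103 in WT, and from 12 to 621 with a median of 115 in Cko. Thus the raw counts of the protease genes overlapped between the genotypes. Per 10000 UMIs of the cell, the medians in WT and Cko were 214 and 268 for *Prss34* and 106 and 239 for *Mcpt8*. In the most loaded cells, 909 of every 10000 UMIs were *Prss34* in WT and 1223 in Cko.

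The limit of 10 UMIs fell in a thinly filled stretch for each gene. The nearest *Prg2* cells below and above it held 8 and 14 UMIs in WT and 6 and 385 in Cko. The nearest *Prss34* cells held 5 and 10 UMIs in WT and 2 and 10 in Cko. For *Mcpt8* they held 7 and 12 in WT and 8 and 12 in Cko.

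**Figure D1:**
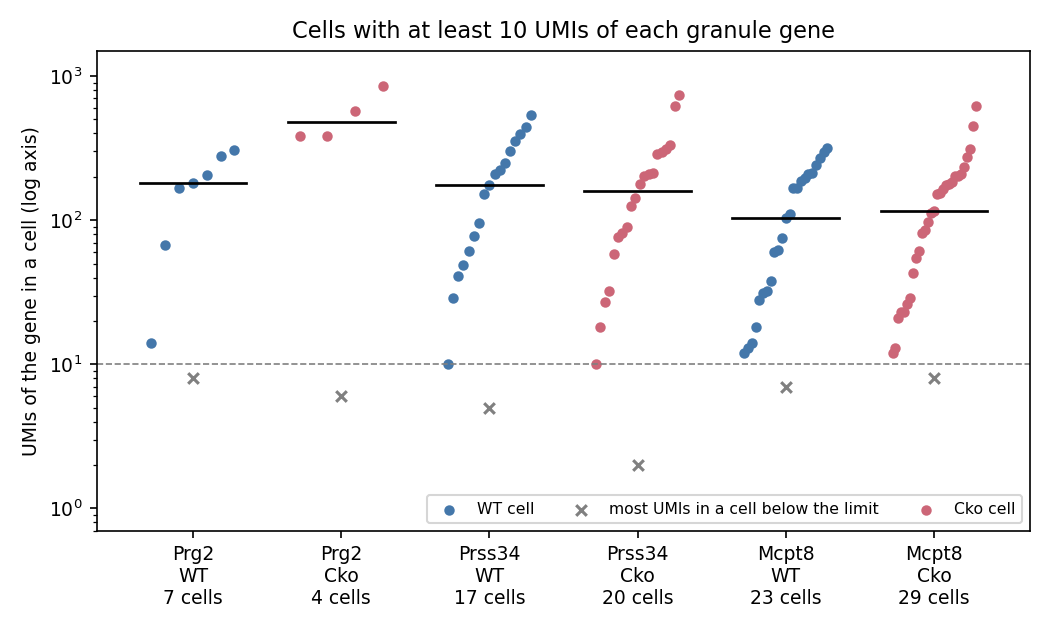
UMIs of *Prg2*, *Prss34* and *Mcpt8* (log axis) in each cell with at least 10 of them, by library. Each point is a cell, the black bars are medians, the dashed line is the limit of 10 UMIs and crosses mark the most UMIs in a cell below it. The 4 Cko *Prg2* points, from 385 to 859, lie above the 7 WT points, while the protease genes overlap.

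Prss34-high cells were Mcpt8-high cells, and Prg2 lay mostly elsewhere. All 17 WT and all 20 Cko *Prss34*-high cells were also high for *Mcpt8* (95% exact binomial intervals 80.5 to 100% and 83.2 to 100%). Among the other cells, only 0.0959% in WT and 0.247% in Cko were high for *Mcpt8*. The reverse was less complete, since 18 of 23 WT and 21 of 29 Cko *Mcpt8*-high cells held a *Prss34* UMI, or 78.3% (56.3 to 92.5%) and 72.4% (52.8 to 87.3%). Of the cells that were not *Mcpt8*-high, 1.41% in WT and 1.49% in Cko held one.

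High cells therefore fell into few kinds. High for *Prss34* and *Mcpt8* together were 15 WT and 20 Cko cells, for *Mcpt8* alone 6 and 9, and for *Prg2* alone 5 and 4. In WT, 2 cells were high for all 3 genes. No cell of either library was high for *Prss34* alone or for *Prg2* with just one of the proteases, and none in Cko was high for all 3, which allows a share of up to 0.0588% of WT and 0.101% of Cko cells by the exact interval.

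*Prg2* shared few cells with the proteases. Of the 7 WT *Prg2*-high cells 2 were high for a protease gene (28.6%, 3.67 to 71%), and of the 4 in Cko none was (0%, 0 to 60.2%). All 7 WT cells held at least 1 *Mcpt8* UMI, but 5 of them held only 1 or 2, and 1 of the 4 Cko cells held any. Of the other cells, 3.34% in WT and 5.36% in Cko held one. No *Prss34*-high cell in Cko held a *Prg2* UMI.

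Across all cells of a library the correlation of *Prss34* with *Mcpt8*, on the log scale of UMIs per 10000, was 0.808 in WT and 0.831 in Cko. These values describe 6271 and 3662 cells of 1 library each and rest on the few high cells. Within the cells high for both, it was 0.903 over 15 WT cells and 0.64 over 20 Cko cells. The ratio of *Prss34* to *Mcpt8* UMIs in a cell ran from 0.365 to 2.79 in WT with a median of 1.41, and from 0.123 to 6.33 in Cko with a median of 0.93. The ends of the wider Cko range were 1 cell with 76 *Prss34* and 12 *Mcpt8* UMIs and 1 cell with 10 and 81. More *Prss34* than *Mcpt8* was held by 8 of 20 Cko cells against 10 of 15 in WT.

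**Figure D2:**
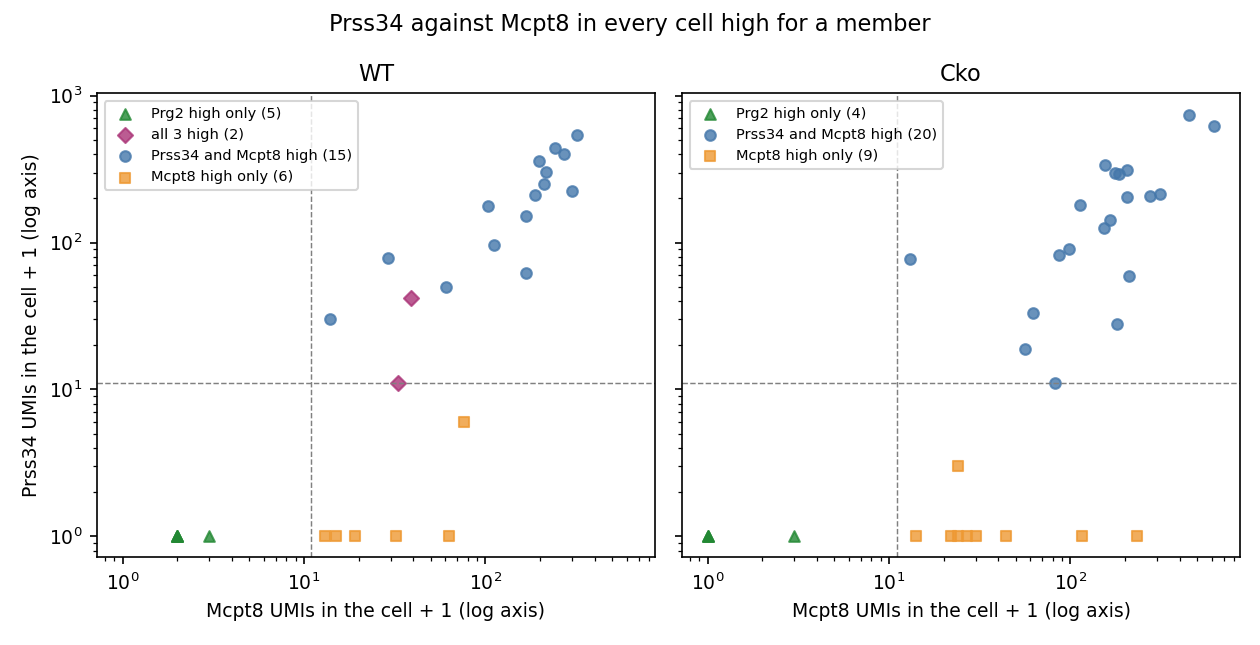
*Prss34* against *Mcpt8* UMIs, each with 1 added (log axes), in every cell high for a member, with WT left and Cko right. Dashed lines mark 10 UMIs. Cells high for *Prss34* (15 and 20 cells high for both proteases, and 2 WT cells high for all 3 genes) lie at or above the limit on both axes, *Mcpt8*-only cells lie along the floor, and *Prg2*-only cells sit near the origin.

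Cells high for Prg2 alone held eosinophil granule genes. The levels of other genes did not enter the choice of these cells. *Prg3*, which encodes a homolog of major basic protein, was at 3293 CPM in the 5 WT cells against 4.23 CPM in the other WT cells, and at 2731 CPM in the 4 Cko cells against 8.87 CPM. *Epx*, the eosinophil peroxidase gene, was at 1835 against 0.746 CPM in WT and at 3277 against 0.233 CPM in Cko. Both genes were found in every one of these cells, with 16 to 42 UMIs of *Prg3* and 2 to 53 of *Epx* in WT, and 10 to 65 and 13 to 77 in Cko.

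Of the genes with at least 100 UMIs in the library, 1.79% were at least 4-fold higher in the WT cells than in the rest, and 1.12% in the Cko cells. Folds have 10 CPM added to both sides. A gene that reaches 100 UMIs only through the high cells had to differ, so lists are counted over genes with at least 100 UMIs outside those cells. This count was added after seeing the data. On it 1.77% of genes passed in WT and 1.07% in Cko. Of the eosinophil markers *Prg3* and the ribonuclease gene *Ear2* could be counted, and 2 of 2 passed in WT and 1 of 2 (*Prg3*) in Cko. *Epx* had 42 UMIs outside these cells in WT and 8 in Cko and was not counted. *Ear2* had 7 UMIs in 2 of the 5 WT cells and 5 UMIs in 3 of the 4 Cko cells (165 and 124 CPM), and did not pass in Cko, where the other cells held 31.1 CPM.

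Markers of the mature eosinophil were mostly outside the lists. *Siglecf*, *Il5ra*, *Alox15*, *Ear6* and *Ear10* were not listed in either library, and *Ear1* was listed in WT only. Unlisted genes were not read as 0, because the smallest top count of any listed gene was 4 UMIs. Of the eosinophil receptor genes none passed, of 1 counted in WT and 3 in Cko.

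Genes of other lists were also higher in cells high for *Prg2* alone. *Cpa3*, the gene for carboxypeptidase A3 of basophil and mast cell granules, was at 423 CPM in WT (18 UMIs in 5 of 5 cells) against 8.09 CPM in the others. The WT cell with 14 *Prg2* UMIs gave 18147 of the 42511 UMIs of these WT cells. It held 10 of the 18 *Cpa3* UMIs, and the other WT cells held 1 to 3 each. In Cko *Cpa3* was at 174 CPM (7 UMIs in 3 of 4 cells) against 18.8 CPM. Of the basophil markers other than the members, 3 of 5 passed in WT (*Cpa3*, *Gata2* and *Hdc*) and 2 of 5 in Cko (*Cpa3* and *Hdc*). In WT 4 of 5 mast cell markers (the same 3 and *Kit*), 5 of 8 stem and progenitor markers and 3 of 8 granulocyte-monocyte progenitor markers passed. *Gata2*, *Kit*, *Meis1* and *Cd34* did so on 2, 3, 2 and 4 UMIs, those of *Meis1* in 1 cell. In Cko 2 of 5 mast cell markers (*Cpa3* and *Hdc*), and 1 of 8 in each of the progenitor lists (*Meis1* and *Calr*), passed. *Meis1* did so there on 2 UMIs in 1 cell.

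Some other leading genes were shared by the genotypes. *Cd63*, which encodes a granule membrane protein, was 10-fold higher in WT at 1929 CPM and 4.83-fold higher in Cko at 1663 CPM. *Calr*, an endoplasmic reticulum chaperone gene that is high in granulocyte progenitors, was 7.42-fold and 5.07-fold higher. *Hdc*, the gene for the enzyme that makes histamine, was 22.3-fold higher in WT and 7.1-fold higher in Cko. *Ldhc*, a lactate dehydrogenase gene best known from testis, was found in 2 of the 5 WT cells at 518 CPM and in all 4 Cko cells at 422 CPM, against 1.33 and 4.92 CPM elsewhere. *Retnlg*, a resistin-like gene of neutrophils, was not shared. It was 11.3-fold higher in WT, on 93 UMIs in 2 of the 5 cells, but at 0.101-fold of the other cells in Cko, on 3 UMIs.

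The ranked genes most like *Prg2* across all cells were *Prg3* (r = 0.583), *Rnase12* (0.354) and *Ldhc* (0.346) in WT. In Cko *Prg3* alone was named (0.347). Only genes with a UMI in at least 20 cells were ranked, and those at r of 0.3 or more are named. *Epx* was found in fewer cells than that in both libraries and was not ranked. The values of r are descriptions over 6271 and 3662 cells.

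Cells high for Prss34 and Mcpt8 held basophil genes. *Cpa3* was at 2120 CPM in the 15 WT cells against 4.06 CPM in the others, and at 3094 CPM in the 20 Cko cells against 6.77 CPM. *Ms4a2*, the β chain of the high-affinity IgE receptor, was at 857 against 1.12 CPM and at 884 against 1.28 CPM. Every cell of this kind in both libraries held both genes.

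The background share of genes at least 4-fold higher was 1.35% in WT and 1.28% in Cko, and 1.32% and 1.17% over genes with at least 100 UMIs outside these cells. Of the basophil markers that could be counted there, 3 of 4 passed in WT and 3 of 3 in Cko, in both *Cpa3*, *Gata2* and *Hdc*. Their median folds were 31.3 and 33.9, beside 1 and 0.971 over all genes counted. *Ms4a2*, with 63 and 44 UMIs outside these cells, was not counted. *Cd200r3*, a receptor gene of basophils and mast cells, was at 537 CPM in WT and 670 CPM in Cko, with 11 and 19 UMIs outside. No eosinophil marker passed in either library, with medians of 0.598 and 0.452.

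*Cyp11a1*, which encodes a steroid-producing enzyme, was at 338 CPM in WT and 368 CPM in Cko against 0.0712 and 0.292 CPM elsewhere. *Csrp3*, a muscle LIM protein gene, was at 623 and 818 CPM against 1.51 and 1.95 CPM, and *Rnase12* at 389 and 346 CPM against 2.14 and 8.93 CPM. *Ifitm1* was at 3860 and 4037 CPM. The Poisson intervals of the libraries overlapped for *Cyp11a1*, *Csrp3* and *Rnase12*.

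Some receptor genes were also higher. From the mast cell and basophil receptor list, 3 of 4 counted genes passed in WT (*Fcer1g*, *Il3ra* and *Csf2rb*) and 2 of 4 in Cko (*Il3ra* and *Csf2rb*). *Il3ra*, the α chain of the receptor for interleukin-3, the main growth factor of basophils, was at 121 CPM in WT and 177 CPM in Cko against 7.33 and 17.2 CPM. *Fcer1g*, a signalling chain shared by many myeloid cells, was at 1818 and 2645 CPM and passed in WT alone, since the other Cko cells already held 1112 CPM.

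*Fcer1a*, the IgE-binding chain, was found in 3 of the 15 WT cells and 11 of the 20 Cko cells, at 268 CPM (31 UMIs) and 354 CPM (48 UMIs). Elsewhere it was at 0.0178 and 0.0875 CPM. *Kit*, the mast cell growth factor receptor gene, was at 8.65 CPM in WT and had no UMI in Cko, which allows up to 27.2 CPM. The mast cell chymase and tryptase genes of the marker list (*Cma1*, *Mcpt1*, *Mcpt2*, *Mcpt4*, *Mcpt9*, *Tpsb2* and *Tpsab1*) were not listed in either library. The 3 of 4 counted mast cell markers that passed in both, *Cpa3*, *Gata2* and *Hdc*, are basophil markers as well. No neutrophil marker passed, with median folds of 0.105 in WT and 0.0259 in Cko over 11 genes.

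Some genes of secreted mediators were higher too. From the cytokine list 2 of 4 counted genes passed in WT and 2 of 3 in Cko. These were the chemokine genes *Ccl6* and *Ccl9*, at 372 and 225 CPM in WT and 1252 and 1039 CPM in Cko. Of the lipid mediator enzymes, 2 of 5 passed in WT (*Alox5* and *Alox5ap*) and 1 of 4 in Cko (*Alox5*). *Alox5*, which starts leukotriene synthesis, was at 147 and 206 CPM. In Cko *Lta4h* and *Ptgs1* were at 0.391-fold and 0.315-fold of the other cells, the latter with no UMI. *Ccl3* had 12 UMIs in 5 WT cells (104 CPM, interval 53.7 to 181) and 47 UMIs in 10 Cko cells (346 CPM, 254 to 460), and with 67 and 94 UMIs in the libraries it was below the limit for counting. The *Ccl3* intervals do not overlap, but they treat UMIs as independent and cover 1 mouse each.

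The neighbours in gene expression were mostly of the same kind. Among the 20 nearest cells, computed without the 3 members, a median of 15 in WT and 18 in Cko were *Mcpt8*-high, while any cell would have 0.0734 and 0.158 on average. The genes most like *Prss34* across all cells were, after *Mcpt8*, *Ms4a2* (r = 0.802), *Cpa3* (0.724), *Csrp3* (0.659) and *Gata2* (0.576) in WT. In Cko *Ms4a2* (0.849) and *Cd200r3* (0.845) came before *Mcpt8*, and *Cyp11a1* (0.802) and *Cpa3* (0.776) after it. *Cd200r3* and *Cyp11a1* had a UMI in fewer than 20 WT cells and were not ranked there, so the 2 rankings are not comparable for them.

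Some transcription factor genes differed between these kinds of cell. *Cebpe*, needed for granulocyte granules, was at 682 CPM in the WT and 720 CPM in the Cko cells high for *Prg2* alone, in all of them. In cells high for *Prss34* and *Mcpt8* it had 1 UMI in WT and none in Cko. *Gata2*, which acts in basophil and mast cell precursors, was at 589 and 516 CPM in the latter, but at 47 CPM (2 UMIs) in the WT *Prg2* cells and at 0 UMIs in the Cko ones. *Cebpa* showed the same division, with 415 and 317 CPM in the protease cells against 23.5 CPM (1 UMI) in WT and no UMI in Cko. From 14 counted factors in WT and 13 in Cko, *Gata2*, *Cebpa* and *Runx1* passed in both libraries in the protease cells, with *Lmo4* in WT alone. In the *Prg2* cells 2 of 14 passed in WT, *Cebpe* at 4.18-fold and *Gata2* at 4.04-fold. None of 13 did in Cko, where *Cebpe* was 1.9-fold above the 374 CPM of the other cells.

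The 2 WT cells high for all 3 genes held *Prg2*, *Prss34* and *Mcpt8* at 167, 10 and 32 UMIs in one and 67, 41 and 38 in the other. Both also held eosinophil and basophil genes, with 23 and 38 UMIs of *Prg3*, 5 and 23 of *Epx*, 5 and 15 of *Cpa3*, and 3 and 4 of *Ms4a2*. They had 7 and 14 UMIs of *Cebpe* and none of *Gata2*, and 53 and 61 of *Mpo*, the myeloperoxidase gene of early granulocytes. Their totals of 7483 and 10009 UMIs were within the range of the other high cells, and neither was called a doublet. Whether each barcode is 1 cell was not tested further.

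**Figure D3:**
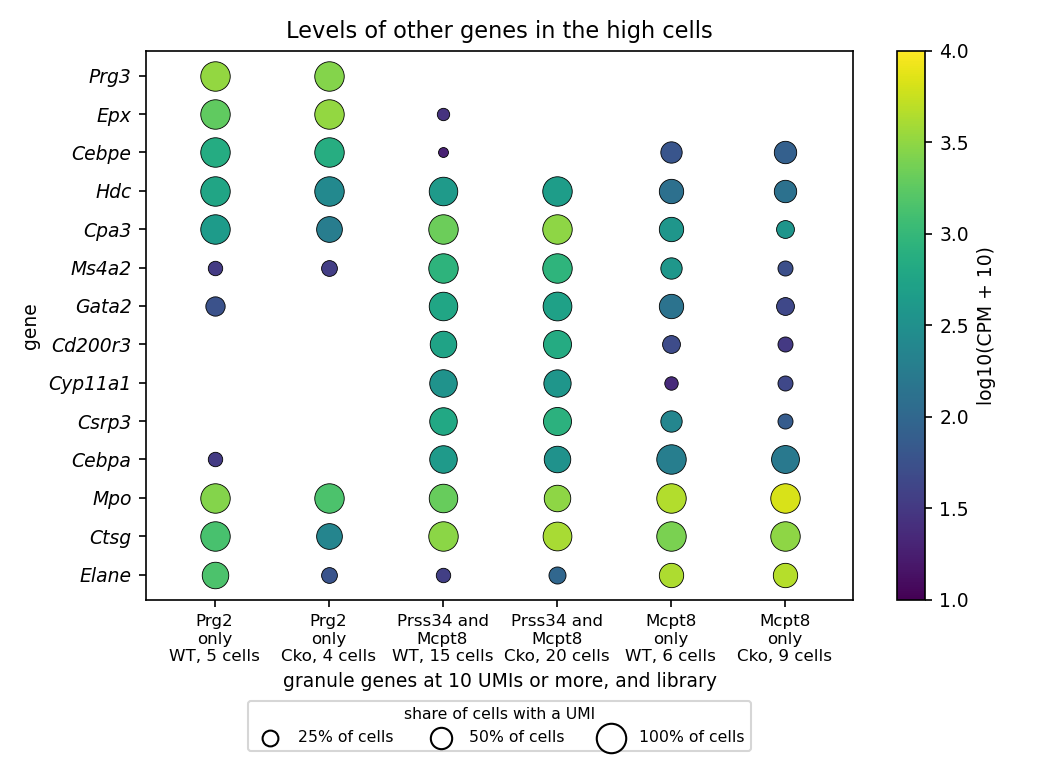
Levels of 14 genes in the cells high for *Prg2* alone, for *Prss34* and *Mcpt8*, and for *Mcpt8* alone, by library. Colour is log10 of CPM with 10 added and dot size is the share of cells with a UMI, with no dot at 0 UMIs. *Prg3*, *Epx* and *Cebpe* fill the *Prg2* columns, and *Cpa3*, *Ms4a2*, *Gata2*, *Cd200r3* and *Cyp11a1* fill the columns of cells high for both proteases.

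Early granulocyte genes varied among the protease cells. *Mpo* and *Ctsg* mark early granulocyte stages. A limit of 10 *Mpo* UMIs per 10000, chosen after the values were seen, left 9 WT and 11 Cko cells at or above it and 6 and 9 below it. *Cd200r3* was at 494 CPM above and 578 CPM below the limit in WT, where the Poisson intervals overlap (328 to 714 and 400 to 807). In Cko it was at 459 CPM (332 to 618) and 1143 CPM (842 to 1515). *Ccl3* had 0 UMIs in the 9 WT cells above the limit, and 12 UMIs in 5 of the 6 cells below it. In Cko it was at 64 CPM above and 976 CPM below. *Gata2* was at 741 CPM above and 442 CPM below in WT, but at 320 and 952 CPM in Cko. *Ifitm1* was at 5573 and 2209 CPM in WT, but at 2976 and 6403 CPM in Cko. The order of these cells in time was not tested.

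Both protease genes were present on each side of the limit. *Prss34* was at 38675 and 19749 CPM above and below it in WT and at 29453 and 30850 CPM in Cko. *Mcpt8* was at 31515 and 13529 CPM in WT and at 29123 and 25137 CPM in Cko. The WT values below the limit pool uneven cells. Cells of 20647, 13651 and 9685 UMIs held 49, 29 and 176 of *Prss34* and 60, 13 and 103 of *Mcpt8*. The first 2 clustered with neutrophil-like cells and the third held 2172 UMIs of *Hbb-bs*. Cells of 5535, 4273 and 5047 UMIs held 356, 251 and 301 of *Prss34* and 197, 209 and 214 of *Mcpt8*. *Cd200r3* had 0, 6 and 7 UMIs in the former and 6, 12 and 3 in the latter. The correlation of *Mpo* with *Cd200r3* was -0.484 over 15 WT and -0.663 over 20 Cko cells, and with *Ccl3* -0.729 and -0.544. Cells below the limit had a median of 4236 UMIs in Cko against 7640 above it, and 7610 against 6979 in WT, so depth moved with the division in Cko. Its part was not tested.

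Cells high for Mcpt8 alone were mixed. They were divided by *Ms4a2* after the values were seen. With an *Ms4a2* UMI, 3 WT and 2 Cko cells held 118 and 256 UMIs of *Mcpt8* in all, with *Cpa3* at 1044 and 2897 CPM and *Elane* at 3 UMIs and 0 UMIs. Without one, 3 WT and 7 Cko cells held 94 and 270 UMIs of *Mcpt8* and no *Prss34* UMI. In these *Elane*, the neutrophil elastase gene of promyelocytes, was at 6392 CPM in WT and 5071 CPM in Cko, and *Mpo* at 6024 and 6731 CPM. These *Elane* sums were uneven, since 3 of the 7 Cko cells held 163, 177 and 268 UMIs and the other 4 held 0, 3, 12 and 37. Their median depth was high, at 16709 and 21891 UMIs, so a fixed limit of 10 UMIs is easier to reach there.

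As 1 set, the cells high for *Mcpt8* alone had 0.676% of genes at least 4-fold higher in WT and 0.191% in Cko, with the UMIs counted in the library or outside the cells. Of 5 counted basophil markers 4 passed in WT and 1 (*Cpa3*) in Cko, where 17 of its 50 UMIs lay in 1 cell that also held 177 UMIs of *Elane*. The granulocyte-monocyte progenitor list passed for 4 of 8 genes in WT (*Mpo*, *Ctsg*, *Calr* and *Cebpa*) and 2 of 8 in Cko (*Calr* and *Cebpa*).

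Mcpt8 was also found at low level in granulocyte-monocyte progenitor-like cells. Of the WT cells with 1 to 9 UMIs of *Mcpt8*, 65 of 193 lay in the cluster named granulocyte-monocyte progenitor-like, and in Cko 110 of 168. Among its cells not high for any member, 17.3% held a *Mcpt8* UMI in WT (13.5 to 21.5%) and 24.4% in Cko (20.5 to 28.6%). The share was 1.03% and 1.82% in cells named B cell-like, a lineage not known to make mast cell proteases. Median depth was 11536 and 15547 UMIs in the first class and 5539 and 7208 in the second.

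With every cell thinned to 3000 UMIs, the progenitor-like share was 5.93% in WT (3.75 to 8.84%) and 6.43% in Cko (4.35 to 9.1%), and the B cell-like share 0.901% and 0.911%. The intervals of the 2 classes do not overlap, and in CPM the levels were 18.2 and 27.4 against 1.47 and 2. The thinned progenitor-like shares of the 2 genotypes overlap. The WT monocyte-like cluster, which also held most WT high cells, was at 2.36% thinned and the Cko one at 0.833%.

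*Prss34* did not share this pattern. Its thinned share in progenitor-like cells was 0% in WT (up to 0.989%) and 0% in Cko (up to 0.815%), and its level of 0.91 and 1.78 CPM compares with 0.734 and 2.59 CPM in B cell-like cells. There were 0.05 *Prss34* UMIs for each *Mcpt8* UMI in the WT progenitor-like cells (4 and 80 UMIs) and 0.065 in Cko (13 and 200), against 1.3 and 1.07 in the cells high for both. *Prg2* was at 1.35% and 1.11% in progenitor-like cells, with intervals that overlap those of B cell-like cells (0.257% and 1.09%).

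**Figure D4:**
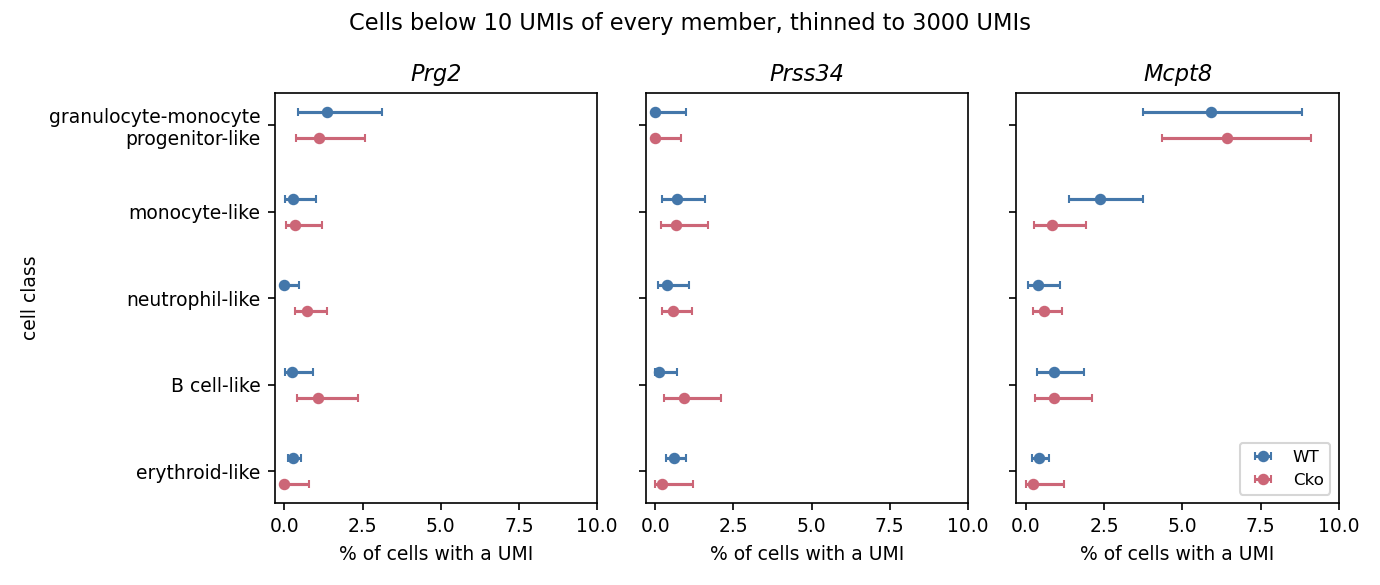
Share of cells with a UMI of each gene (%, 95% exact binomial intervals) in 5 classes after thinning to 3000 UMIs, for cells below 10 UMIs of every member, with WT in blue and Cko in red. *Mcpt8* in granulocyte-monocyte progenitor-like cells, at 5.93% and 6.43%, stands above its B cell-like shares of 0.901% and 0.911%, while *Prss34* is at 0% there.

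High cells formed no cluster of their own at the main resolution. Clusters were named from marker genes of each cell type and built without the 3 members. In WT, the monocyte-like cluster of 745 cells held 6 of 7 *Prg2*-high, 15 of 17 *Prss34*-high and 21 of 23 *Mcpt8*-high cells. The name is that of the cluster. None of 7 monocyte markers was at least 4-fold higher in the WT cells high for *Prg2* alone (median fold 0.254). The same held for cells high for both proteases (0.532) and for *Mcpt8* alone (2.2). In Cko, the stem and progenitor-like cluster of 216 cells held 2 of 4, 19 of 20 and 21 of 29. The granulocyte-monocyte progenitor-like cluster held 1 WT *Prg2*-high cell, and 1, 1 and 8 of the Cko cells high for *Prg2*, *Prss34* and *Mcpt8*. These classes thus took different clusters in the 2 libraries.

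At a finer resolution of 3, a Cko cluster of 21 cells took the name basophil-like, led by *Cpa3*, *Ifitm1* and *Ms4a2*. Of its 21 cells, 20 were high for *Mcpt8*. A basophil-like Cko cluster of 21 cells, 20 of them high for *Mcpt8*, was already present at a resolution of 1.2. No such cluster formed in WT. There, at a resolution of 3, 13 of the 15 cells high for *Prss34* and *Mcpt8* lay in a cluster of 154 cells led by the platelet gene *Pf4*. The 15 cells themselves held no *Pf4* UMI. All *Prg2*-high WT cells lay in granulocyte and monocyte clusters at the main resolution (100%, 59 to 100%), but 3 of 7 did at resolutions of 0.4 and 1.2 (42.9%, 9.9 to 81.6%). In Cko 2 of 4 did at the main resolution (50%, 6.76 to 93.2%). Of all cells, these clusters held 804, 745 and 372 of 6271 in WT. In Cko they held 679, 600, 554 and 460 of 3662, which is most of them. The Cko share thus does not set the *Prg2*-high cells apart from other cells. With the libraries clustered together, all 7 WT and all 4 Cko cells did. The 7 WT cells were in a class of 1078 WT cells. The Cko cells were in classes of 1191 (3 cells) and 1221 (1 cell) Cko cells.

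Other cell types' markers were present in some high cells. The Cko cell with 859 *Prg2* UMIs lay in the neutrophil-like cluster and held 964 UMIs of *S100a8*, 396 of *Camp* and 223 of *Ngp*, genes of neutrophil granules and cytosol. It carried 38% of all Cko *Prg2* UMIs. The other 3 Cko *Prg2*-high cells, which held at most 6 UMIs of *S100a8*, were called doublets by Scrublet, and no other high cell was. In WT, 1 of the 5 cells high for *Prg2* alone held 379 *S100a8* UMIs and had the lowest *Prg2* count, 14. Erythroid markers were at 53201 CPM in the WT cells high for both proteases and 1017 CPM in the Cko cells, below the 171977 and 64788 CPM of the other cells. A single WT cell held 2172 UMIs of *Hbb-bs*.

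The shares of high cells were compared between the genotypes. Cells high for *Prg2* were 0.112% of WT (0.0449 to 0.23%) and 0.109% of Cko (0.0298 to 0.279%), a log2 ratio of -0.03 with an exact interval from -2.25 to 1.94. With called doublets removed 1 of the 4 Cko cells was left, and the log2 ratio was -2.04. Cells high for *Prss34* were 0.271% and 0.546%, a log2 ratio of 1.01 (0.0034 to 2.03). Cells high for *Mcpt8* were 0.367% and 0.792%, a log2 ratio of 1.11 (0.27 to 1.97). Cells high for a protease gene were thus a larger share of the Cko library, at the edge of counting error for *Prss34* and beyond it for *Mcpt8*. The *Mcpt8* counts include the 6 WT and 9 Cko cells high for *Mcpt8* alone, which were mixed.

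The ratio moved with the makeup of the libraries. WT had 2645 erythroid-like cells of 6271 and Cko 460 of 3662. Among cells outside erythroid-like clusters the log2 ratios were -0.63 for *Prg2*, 0.41 (-0.59 to 1.44) for *Prss34* and 0.51 (-0.33 to 1.37) for *Mcpt8*. With the WT cluster led by *Mt2* and *Mt1* also left out, they were -0.96, 0.09 and 0.19, all with intervals that include 0. This denominator is not matched, because the Cko stem and progenitor-like cluster of 216 cells, also led by *Mt2* and with *Mt1* among its 10 leading genes, was kept in the 3202 Cko cells. That cluster holds most Cko protease cells. The larger shares of *Prss34*-high and *Mcpt8*-high cells in Cko were thus not detectable beyond counting error on these denominators.

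**Figure D5:**
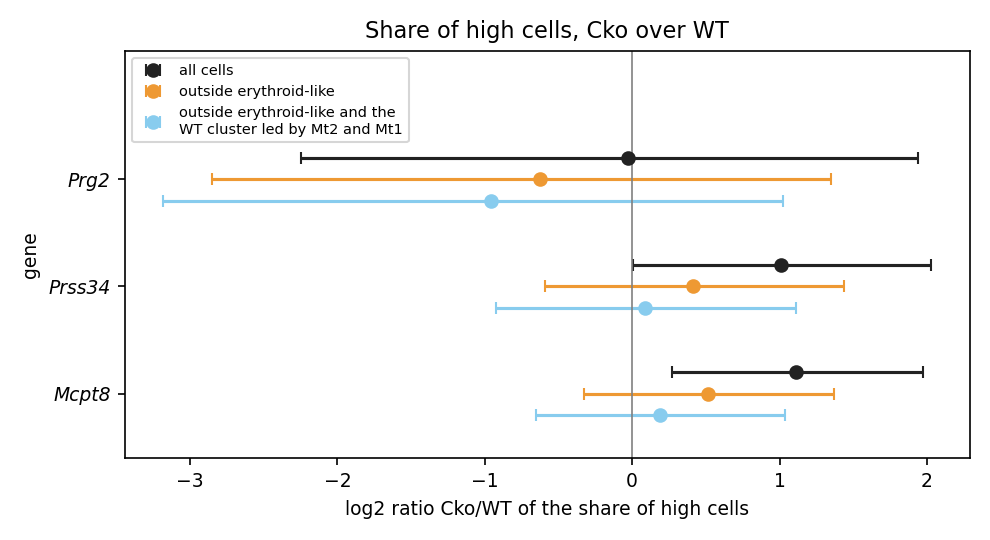
The log2 ratio of Cko over WT for the share of cells high for each gene, with exact 95% intervals for counting error, over 3 denominators. The *Mcpt8* ratio goes from 1.11 over all cells to 0.51 outside erythroid-like clusters and 0.19 without the WT cluster led by *Mt2* and *Mt1*.

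Summed over each library, *Prg2* was at 22.8 CPM in WT and 65.7 CPM in Cko, *Prss34* at 62.1 and 120 CPM, and *Mcpt8* at 55.2 and 133 CPM. The Cko levels were 2.88, 1.92 and 2.41 times the WT levels, where 8.54% of genes with at least 100 UMIs in the libraries were at least 2-fold higher. Outside erythroid-like clusters they were 2.18, 1.46 and 1.82 times higher, where 3.2% of genes were at least 2-fold higher. Without its top cell *Prg2* was at 40.8 CPM in Cko, so a single cell set much of that ratio. In such sums more cells of a kind and more RNA per cell cannot be told apart. For *Prg2* the share of high cells had a log2 ratio of -0.03 (-2.25 to 1.94), or -2.04 with called doublets removed. The Cko high cells held more *Prg2* UMIs each, but they were also deeper, with a median of 11230 UMIs against 7483 in WT. Per 10000 UMIs the ranges overlapped. Of the 4 Cko cells 3 were called doublets and the other held 964 UMIs of *S100a8*. The part of each was not tested.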

How the data were processed

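The authors made 1 library per genotype with the Chromium Single Cell 3′ v2 kit and counted reads with Cell Ranger, whose version is not given in the sources used here, on GRCm38 per the submitters' processing notes. The deposited values are raw UMI counts per gene and cell barcode. Cells with at least 200 genes were kept. Seurat 5.3.0 (R 4.3.3) clustered the libraries separately and without the 3 members (2000 variable genes, 20 principal components, 20 neighbours, the lowest resolution giving at least 10 clusters), and a cluster was named from at least 3 markers of a cell type. The *Stfa* gene family was also left out of the clustering, and the mitochondrial and ribosomal shares of each cell were regressed out. A cluster led by immunoglobulin genes was left unnamed. Scrublet (scanpy 1.11.5, expected rate 5%) called 127 WT and 51 Cko cells doublets, which were kept. CPM are UMIs per 1000000 UMIs of the cells summed, and folds have 10 CPM added. Genes with at least 100 UMIs were tested against the limits of 4-fold and 2-fold, with no p-value. Marker and pathway lists were counted over genes with at least 100 UMIs outside the high cells, a limit chosen after seeing the data. Intervals are exact binomial and Poisson at 95%. The fold calculation was run on simulated counts with changes planted only in genes with many UMIs. It does not cover calls that rest on a few UMIs. Scripts ran in Python 3.11.15 (matplotlib 3.10.9, pandas 2.3.3, scipy 1.17.1, numpy 2.4.6).

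The members, marker lists and alternatives were chosen with earlier results of these data known. Genes named are the members, the listed markers and pathway genes, up to 5 genes most correlated with a member (r of 0.3 or more), and the 10 genes of highest fold with at least 20 UMIs in each group of high cells. Genes ranked by correlation had a UMI in at least 20 cells. *Ldhc*, *Rnase12* and the *Mbtps1* check were also given in every group.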

Additional observations from a re-analysis of the deposited data

How the results depend on the processing

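With 1 library per genotype the spread between mice is unknown, and few cells bound every value, with 4 Cko cells high for *Prg2*. No paired analysis was possible because each genotype has 1 library and no test was made. Limits of 5 or 20 UMIs, 10 UMIs per 10000, thinning to 3000 UMIs with a limit of 5, removal of called doublets and at least 500 genes per cell left the shares of high cells and the co-detection of the members within their main intervals. Under removal of doublets the log2 ratio for *Prg2* was -2.04, since 1 of 4 Cko cells remained. The ratio for *Prss34* had an interval that included 0 at limits of 5 (0.93) and 20 UMIs (0.95), without doublets (1.0) and with 500 genes (0.93). Leaving out erythroid-like clusters and the WT cluster led by *Mt2* and *Mt1*, chosen after seeing the data, gave 0.19 for *Mcpt8*. The share of WT *Prg2*-high cells in granulocyte and monocyte clusters was 42.9% at resolutions of 0.4 and 1.2, where 4 of the 7 lay in a stem and progenitor-like cluster and in a megakaryocyte-like cluster, respectively. In Cko it was 100% with joint clustering (4 of 4 cells) and 100% without doublets (1 of 1). Also chosen after seeing the data, library levels outside erythroid-like clusters gave log2 ratios of 1.12, 0.54 and 0.86 for *Prg2*, *Prss34* and *Mcpt8*, against 1.53, 0.94 and 1.27 over all cells, and *Prg2* without its top cell gave 0.84.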
